A study of Mus musculus with 6 samples.

Results

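The MS4A genes encode small membrane proteins that cross the membrane several times, and they lie side by side in a single gene cluster. Described here are 10 of them in the mouse B-cell line 230-238, namely Ms4a1, Ms4a2, Ms4a4a, Ms4a4b, Ms4a4c, Ms4a4d, Ms4a6b, Ms4a6c, Ms4a6d and Ms4a7, of 19937 genes that a probe set with a single gene symbol measured. A probe set is the group of array probes that reports 1 transcript, and each of the 10 genes had 1 of them. The genes were chosen by values of these same arrays, their level in the GFP cells and their change with FOG1, so both are given as a description of these arrays, with no test and no p-value. All cells were of the line 230-238. The GFP group was infected with a plasmid for green fluorescent protein (GFP), and the GFP+FOG1 group with a plasmid for GFP and FOG1, the cofactor of GATA transcription factors that the gene Zfpm1 encodes. Each group had 3 samples, called biological replicates in the labels, and no uninfected cells are among the samples. In both groups 3 days of culture followed infection, GFP-positive cells were then sorted out, and RNA was taken after 4 further days of culture. Nothing says that the replicates were infected separately, so errors measure the spread between these samples only.

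MS4A proteins act mostly as parts of larger receptor assemblies, where they tune signalling and calcium entry. The best known is CD20, the product of Ms4a1, which sits with the B-cell receptor on B cells and is the target of therapeutic antibodies against B-cell tumours. Ms4a2 encodes the beta chain of the high-affinity IgE receptor of mast cells and basophils, and in mast cells FOG1 is known to restrain its GATA1-dependent transcription. Most of the others are known from macrophages, microglia or T cells.

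Values are log2 signals, and a change is the mean of the GFP+FOG1 arrays minus the mean of the GFP arrays, with the standard error (SE) of limma's fit over all probe sets. Zfpm1 had a signal of 9.44 ± 0.04 (SD, n = 3) in the GFP group and 10.18 ± 0.03 (SD, n = 3) in the GFP+FOG1 group, and each array went with its label. On the first principal component of all probe sets the GFP arrays lay between -16.1 and -11.4 and GFP+FOG1 replicates 1, 2 and 3 at 1.15, 17.0 and 24.3, so GFP+FOG1 replicate 1 stood nearest to the GFP arrays. Of 12 B-lineage markers 11 were measured, and all 11 lay at or above the median of all values, 7.00, as did 6 of 7 early B-cell markers. By contrast 2 of 15 monocyte and macrophage markers (Cd68 and Cx3cr1), 3 of 12 T and NK cell markers (Cd2, Cd3e and Prf1) and 0 of 12 mast cell and basophil markers did. In bulk RNA, fewer cells of a type and less RNA per cell cannot be told apart.

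Promoter sequences are shown for the genes that differ within pairs of close relatives, Ms4a6b with Ms4a6c and Ms4a4c with Ms4a4b, and for Ms4a2 because of its known control by GATA factors. They are the 250 bases before the gene start from RefSeq on build GRCm38.p6, written 5′ to 3′ on the gene's strand. That table held 8 of the 10 genes. It lacked Ms4a1, which encodes CD20, and Ms4a6d, so the promoters of these genes were not searched. Capitals mark words that bind GATA factors (AGATAA or AGATAG or TGATAA or TGATAG), the octamer ATGCAAAT of OCT factors and GAGGAA, the core of PU.1 sites, each on either strand. Ms4a6b lies at chr19:11518309-11518558, plus strand, Ms4a6c at chr19:11469118-11469367, plus strand, Ms4a4c at chr19:11407411-11407660, plus strand, Ms4a4b at chr19:11443308-11443557, plus strand and Ms4a2 at chr19:11623720-11623969, minus strand.
Ms4a6b: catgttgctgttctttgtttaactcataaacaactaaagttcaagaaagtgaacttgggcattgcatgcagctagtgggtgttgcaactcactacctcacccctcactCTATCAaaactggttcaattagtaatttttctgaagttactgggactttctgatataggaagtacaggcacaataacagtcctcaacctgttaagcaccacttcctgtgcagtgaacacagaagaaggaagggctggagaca
Ms4a6c: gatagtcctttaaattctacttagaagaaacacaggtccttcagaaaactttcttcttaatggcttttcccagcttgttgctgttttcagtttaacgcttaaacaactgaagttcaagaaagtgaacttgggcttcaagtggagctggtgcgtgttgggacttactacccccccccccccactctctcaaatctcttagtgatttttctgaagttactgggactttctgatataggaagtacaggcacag
Ms4a4c: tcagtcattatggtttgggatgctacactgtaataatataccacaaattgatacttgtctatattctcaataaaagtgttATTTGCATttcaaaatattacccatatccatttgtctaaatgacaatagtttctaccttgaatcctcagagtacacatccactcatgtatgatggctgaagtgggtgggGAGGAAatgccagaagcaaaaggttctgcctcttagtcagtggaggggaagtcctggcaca
Ms4a4b: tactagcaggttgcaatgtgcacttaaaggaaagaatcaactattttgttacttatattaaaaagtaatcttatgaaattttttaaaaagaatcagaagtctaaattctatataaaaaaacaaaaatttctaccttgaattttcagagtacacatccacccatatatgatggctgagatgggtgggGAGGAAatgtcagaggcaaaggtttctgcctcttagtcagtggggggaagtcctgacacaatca
Ms4a2: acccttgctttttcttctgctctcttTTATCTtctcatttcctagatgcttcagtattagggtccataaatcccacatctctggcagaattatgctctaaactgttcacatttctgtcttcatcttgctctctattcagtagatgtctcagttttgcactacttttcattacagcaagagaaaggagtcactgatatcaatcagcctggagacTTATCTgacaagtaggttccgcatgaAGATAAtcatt

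The promoters of Ms4a6b and Ms4a6c were 85.1% identical over 175 aligned bases and shared an unbroken run of 48 bases. That run began 118 bases before the annotated start of Ms4a6b and 49 bases before that of Ms4a6c, so the starts are not at the same place in the shared sequence. The promoters of Ms4a4b and Ms4a4c were 78.9% identical over 232 aligned bases. No other pair aligned over 100 bases or more. The 8 genes had 9 promoter entries, since Ms4a7 had more than 1. A GATA word was found before 3 of the 8 genes. The background of 26.5% counts single entries, among 32851 promoters of the same length, and not genes. Ms4a2 held 3, all AGATAA, and its pair nearest the start lay 37 to 32 and 11 to 6 bases before it. Ms4a6b held 1, TGATAG on the opposite strand (read here as CTATCA), at a place where the aligned bases of Ms4a6c read CTCTCA. Ms4a7 held a TGATAA in 1 of its entries. Ms4a6c held none of the words. The octamer, found in 1.6% of all promoters, was in Ms4a4c alone among the 8 genes, 170 to 163 bases before its start. GAGGAA, found in 23.3%, lay at like distances in Ms4a4b and Ms4a4c, 64 and 61 bases before the start. These matches describe letters in a window and show no binding.

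Among the 10 genes, 3 had a signal at or above the median of all values in the GFP cells, and these same 3 were lower on every GFP+FOG1 array than on any GFP array. They were Ms4a6b, Ms4a4c and Ms4a1. The background for groups that do not overlap in this direction was 10.5% of 34760 probe sets, and 10.2% of those at or above the median. None of the 10 was higher on every GFP+FOG1 array, as 9.13% of all probe sets were. The remaining 7 genes had signals at percentiles 6.90 to 38.5 of all probe sets and groups that overlapped. Their changes ran from -0.13 to 0.02. Over all 10 genes 8 had a negative change, and the median was -0.09, against -0.01 for all probe sets. Over all probe sets, limma's adjusted p was under 0.05 for 0.224%, with 0.121% lower and 0.104% higher. As this contrast chose the 10 genes, nothing is read from the counts of them.

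**Figure D1:**
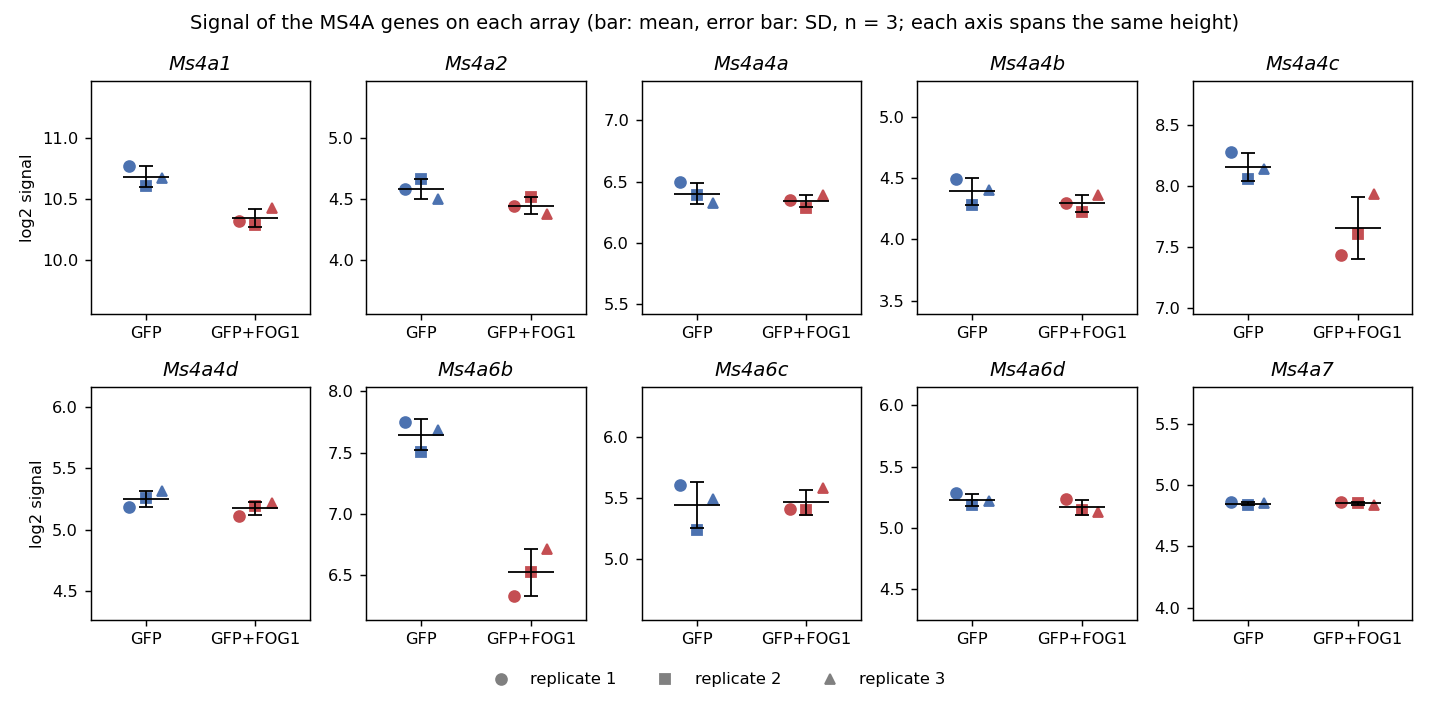
Log2 signal of each of the 10 MS4A genes (vertical axes, all spanning the same height) on the 3 GFP arrays (blue) and the 3 GFP+FOG1 arrays (red), with the mean and SD as black bars and the replicate number as the marker shape. Ms4a6b, Ms4a4c and Ms4a1 show groups that do not overlap, while the other 7 overlap.

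Ms4a6b had the largest change of the family. Its signals were 7.75, 7.50 and 7.69 on the GFP arrays and 6.33, 6.52 and 6.72 on the GFP+FOG1 arrays. All GFP+FOG1 arrays were low, and 0.79 log2 units separated their highest value from the lowest GFP value. The means were 7.65 ± 0.13 and 6.52 ± 0.19 (SD, n = 3 each), a log2 change of -1.12 (SE 0.11), so that the signal was 2.18-fold lower with FOG1. Among the 21640 probe sets with 1 symbol, this was the 7th lowest change. The change lay between -1.22 and -1.03 whichever array was left out.

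Its close relative Ms4a6c, known from monocytes and macrophages, had signals of 5.61, 5.24 and 5.49 on the GFP arrays and 5.41, 5.41 and 5.59 on the GFP+FOG1 arrays. The GFP+FOG1 values all lay within the range of the GFP values. The log2 change was 0.02 (SE 0.10), and it turned to -0.08 without GFP replicate 2 and to -0.04 without GFP+FOG1 replicate 3. Its GFP level lay at percentile 20.7 of all probe sets, where part of a signal can be background, and a fall there would be understated. Ms4a6d, also known from macrophages, was likewise dim, with means of 5.23 ± 0.05 and 5.17 ± 0.06 (SD, n = 3 each) and a log2 change of -0.06 (SE 0.05). The probe sequences of these related genes were not used here, and whether a probe set also takes up RNA of a relative was not tested.

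Ms4a4c had the second largest change and the widest spread. Its signals were 8.28, 8.05 and 8.14 on the GFP arrays and 7.43, 7.61 and 7.93 on the GFP+FOG1 arrays. The groups did not overlap, but GFP+FOG1 replicate 3 lay only 0.12 below the lowest GFP array. The means were 8.16 ± 0.11 and 7.66 ± 0.25 (SD, n = 3 each), and the log2 change was -0.50 (SE 0.13), or 1.41-fold lower with FOG1. It was -0.39 without GFP+FOG1 replicate 1 and -0.64 without GFP+FOG1 replicate 3.

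The other genes of the Ms4a4 group were dim. Ms4a4b, known from T cells, where its product associates with the costimulatory receptor GITR, had means of 4.39 ± 0.11 and 4.29 ± 0.07 (SD, n = 3 each). Its GFP signal lay at percentile 6.90 of all probe sets. Its log2 change was -0.10 (SE 0.07). Ms4a4a, known from macrophages, where its product associates with the fungal receptor Dectin-1, had means of 6.40 ± 0.09 and 6.34 ± 0.05 (SD, n = 3 each) and a log2 change of -0.06 (SE 0.06). Ms4a4d had means of 5.25 ± 0.06 and 5.18 ± 0.05 (SD, n = 3 each) and a log2 change of -0.08 (SE 0.05). The groups overlapped for all 3 of these genes.

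Ms4a1, which encodes CD20, had a signal at percentile 93.9 of all probe sets in the GFP cells. Its signals were 10.77, 10.61 and 10.67 on the GFP arrays and 10.32, 10.29 and 10.43 on the GFP+FOG1 arrays. The groups lay 0.18 apart at their nearest values. The means were 10.68 ± 0.08 and 10.34 ± 0.08 (SD, n = 3 each), and the log2 change was -0.34 (SE 0.06), or 1.26-fold lower with FOG1. It lay between -0.38 and -0.29 whichever array was left out. In Ms4a6b, Ms4a4c and Ms4a1 alike, GFP replicate 2 was the lowest GFP array and GFP+FOG1 replicate 3 the highest GFP+FOG1 array. GFP+FOG1 replicate 3 was thus the array nearest to the GFP group in these genes, while over all probe sets it stood farthest from it on the first principal component.

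Ms4a2, the IgE receptor beta chain, had signals of 4.58, 4.66 and 4.50 on the GFP arrays and 4.44, 4.52 and 4.38 on the GFP+FOG1 arrays. The groups overlapped, since GFP+FOG1 replicate 2 lay above GFP replicate 3. The log2 change was -0.13 (SE 0.06) at percentile 8.93 of the GFP signals. Its partner chains did not pass the threshold of an adjusted p under 0.05 (limma with Benjamini-Hochberg adjustment over all probe sets, as for each adjusted p given here). Fcer1a, the chain that binds IgE, had a log2 change of -0.02 (adjusted p = 0.88) at percentile 12.2, and Fcer1g, the shared signalling chain, of 0.19 (adjusted p = 0.24). Gata1 was at -0.20 (adjusted p = 0.32) and Gata2 at -0.10 (adjusted p = 0.53), both below the median signal. Ms4a7, known from macrophages and microglia, had signals between 4.84 and 4.86 on all 6 arrays and a log2 change of 0.00 (SE 0.04).

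**Figure D2:**
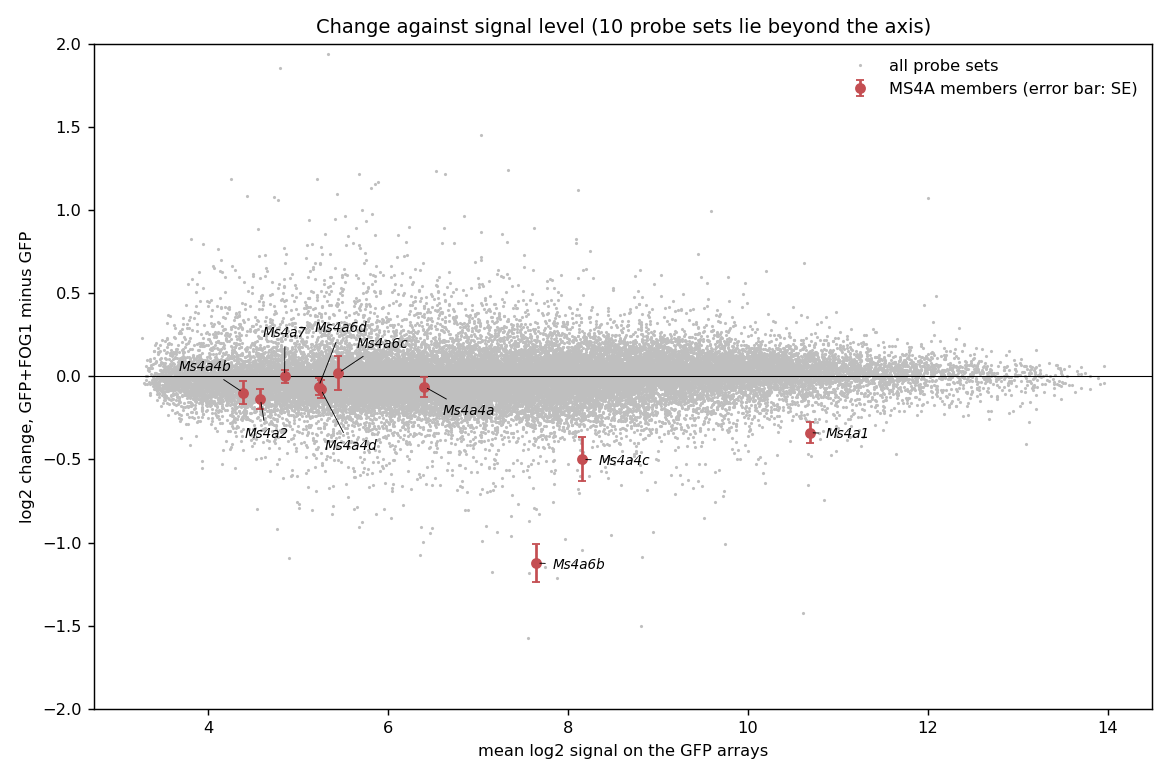
Log2 change (GFP+FOG1 minus GFP, vertical axis) against the mean log2 signal on the GFP arrays (horizontal axis) for 34760 probe sets in grey and for the 10 MS4A genes in red, with the SE as error bars. Ms4a6b at -1.12, Ms4a4c at -0.50 and Ms4a1 at -0.34 lie above the median signal of 7.00. Their changes rank 10, 219 and 621 from the lowest of all probe sets, so only Ms4a6b lies near the lower edge of the grey cloud. The other 7 lie inside the cloud.

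Position in the cluster was compared with the neighbouring genes, using the gene order of RefSeq. From 10 protein-coding genes before Ms4a1 to 10 after Ms4a2 the order holds 33 genes, of which 30 were measured. The 3 genes that were lower without overlap are not next to each other. Between Ms4a1 and Ms4a4c lie Ms4a5, Ms4a14, Ms4a7 and Ms4a4a, and between Ms4a4c and Ms4a6b lie Ms4a4b, Ms4a6c and Gm8369. Of the 20 measured genes in this stretch that are not among the 10, 0 passed (limma). An unadjusted p under 0.05 was found for 0 of the 20, against 12.5% of all probe sets. Groups without overlap were found for 0, against 10.5% lower and 9.13% higher of all probe sets. The GFP signals of these genes had a median percentile of 30.1, so most were dim, and the comparison with all probe sets is not at like signal. Their median change was -0.03 and their range -0.12 to 0.09. Among them are the 9 other measured MS4A genes, with GFP signals at percentiles 2.26 to 51.5 and changes of -0.12 (Ms4a12) to 0.00 (Ms4a10), at adjusted p of 0.55 to 1.00. The ribosomal gene Mrpl16, a bright neighbour at 9.31 in the GFP cells, had a change of 0.09 (adjusted p = 0.53), and Ccdc86, at 9.14, one of -0.03.

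**Figure D3:**
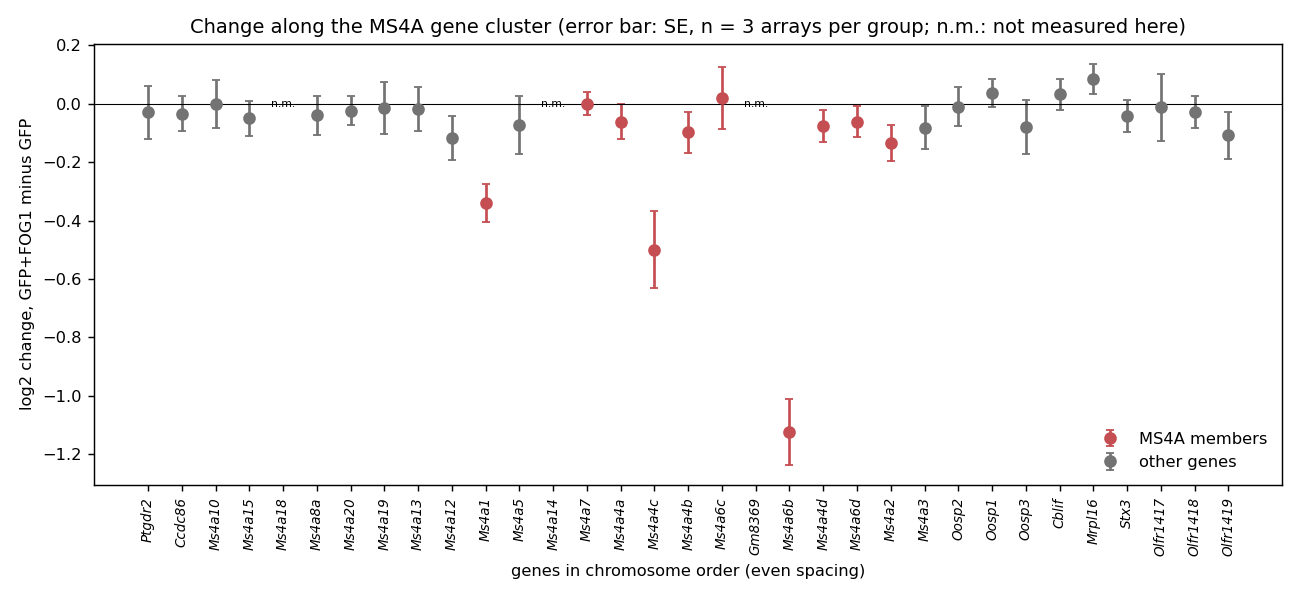
Log2 change with its SE (vertical axis, n = 3 arrays a group) for 33 protein-coding genes in chromosome order at even spacing (horizontal axis), the 10 MS4A genes in red and other genes in grey, with 3 genes not measured here. Ms4a1, Ms4a4c and Ms4a6b stand below genes on either side of them, whose changes lie between -0.13 and 0.09.

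Tmem176b, a relative of the MS4A family outside the cluster that is known from dendritic cells, had signals of 8.17, 8.00 and 8.24 on the GFP arrays and 7.62, 7.35 and 7.63 on the GFP+FOG1 arrays. The groups did not overlap. Its log2 change of -0.60 (SE 0.10) missed the threshold over all probe sets (adjusted p = 0.12) and passed when only probe sets with 1 symbol were tested. Its neighbour and partner Tmem176a had a change of -0.14 (adjusted p = 0.48). In the list of other MS4A and related genes, 0 of 9 measured genes passed (limma), and the median was -0.07. Of the 9, 1 had an unadjusted p under 0.05, against 12.5% of all probe sets.

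The surface partners of CD20 on B cells did not pass as single genes. Of 23 probe sets of 21 genes, 0 passed (limma), against 0.224% of all probe sets, and the median change was -0.04. An unadjusted p under 0.05 (limma) was found for 9 of the 23, 7 lower and 2 higher, against 12.5% of all probe sets. Groups did not overlap for 9 in the lower and 2 in the higher direction, against 10.5% and 9.13% of all probe sets. The GFP signals of the 23 had a median percentile of 95.1, so these comparisons with all probe sets are not at like signal. Cd79a and Cd79b, the signalling chains of the B-cell receptor, had changes of -0.41 (adjusted p = 0.088) and -0.16 (adjusted p = 0.25). Fcer2a, the low-affinity IgE receptor, was at -0.45 (adjusted p = 0.076), but dim, at percentile 32.0 of the GFP signals. Cd40, the receptor for T-cell help, was at -0.23 (adjusted p = 0.22). Both Cd79a and Fcer2a passed when only probe sets with 1 symbol were tested, and Cd79a also without dim probe sets and with a variance trend. Ighm, the heavy chain of IgM, was at 0.93 (adjusted p = 0.23) at 1 of its 3 probe sets, and at -0.11 and 0.02 at the others.

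Among transcription factors of B cells, which include those known to act on the CD20 promoter, 0 of 17 passed (limma) and the median change was 0.01. Of the 17, 3 had an unadjusted p under 0.05, against 12.5% of all probe sets. Their GFP signals had a median percentile of 96.2, so this comparison is not at like signal either. Irf8 was at -0.25 (adjusted p = 0.22), Irf4 at 0.19 (adjusted p = 0.29) and Bach2, a repressor of plasma cell genes, at 0.20 (adjusted p = 0.27). Among 20 probe sets of calcium entry and release genes, 0 passed (limma) and the median was -0.02. Of the 20, 4 had an unadjusted p under 0.05, all lower, against 12.5% of all probe sets in either direction. The 20 were bright too, with a median percentile of 83.9 of the GFP signals. Bank1, an adaptor of B-cell receptor signalling, was at -0.30 (adjusted p = 0.18) and Nfatc1, a calcium-regulated transcription factor, at -0.18 (adjusted p = 0.22). Orai2, a calcium channel subunit, was at -0.66 (adjusted p = 0.31) and -0.20 (adjusted p = 0.29) at its probe sets. At the first, GFP+FOG1 replicates 1, 2 and 3 were at 10.39, 10.11 and 9.52, an SD of 0.45 against 0.03 in the GFP group. Replicate 3 thus weighed most in that change.

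In the IgE receptor list 1 of 17 genes passed (limma), Zfpm1 itself, which the plasmid carries, and the median change was -0.02. An unadjusted p under 0.05 was found for 5 of the 17, against 12.5% of all probe sets. With a median percentile of 79.3 of the GFP signals, these genes too were not at like signal with all probe sets. The adaptor genes Lat2 and Lcp2 were at -0.40 (adjusted p = 0.19) and -0.29 (adjusted p = 0.23). Among 16 genes listed as partners or neighbours of MS4A proteins in macrophages and T cells, 1 fell past the threshold (limma). Over all probe sets 0.121% did so. The median change of the 16 was -0.03. This list was chosen with earlier results of these data known, so the count is no independent result. Of the 16, 5 showed an unadjusted p under 0.05, against 12.5% of all probe sets. The gene that fell was Itgam, the integrin alpha M chain of myeloid cells, with a log2 change of -1.11 (adjusted p = 0.0075). Without GFP replicate 1, GFP replicate 3 or GFP+FOG1 replicate 2 it missed the threshold, at changes of -1.08, -1.12 and -1.08 (limma adjusted p = 0.058, 0.066 and 0.054). Clec7a, which encodes Dectin-1, was at -0.02 (adjusted p = 0.88) and Tnfrsf18, which encodes GITR, at -0.10 (adjusted p = 0.46). Cd14, the coreceptor for bacterial lipopolysaccharide, was at -0.20 (adjusted p = 0.26).

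**Figure D4:**
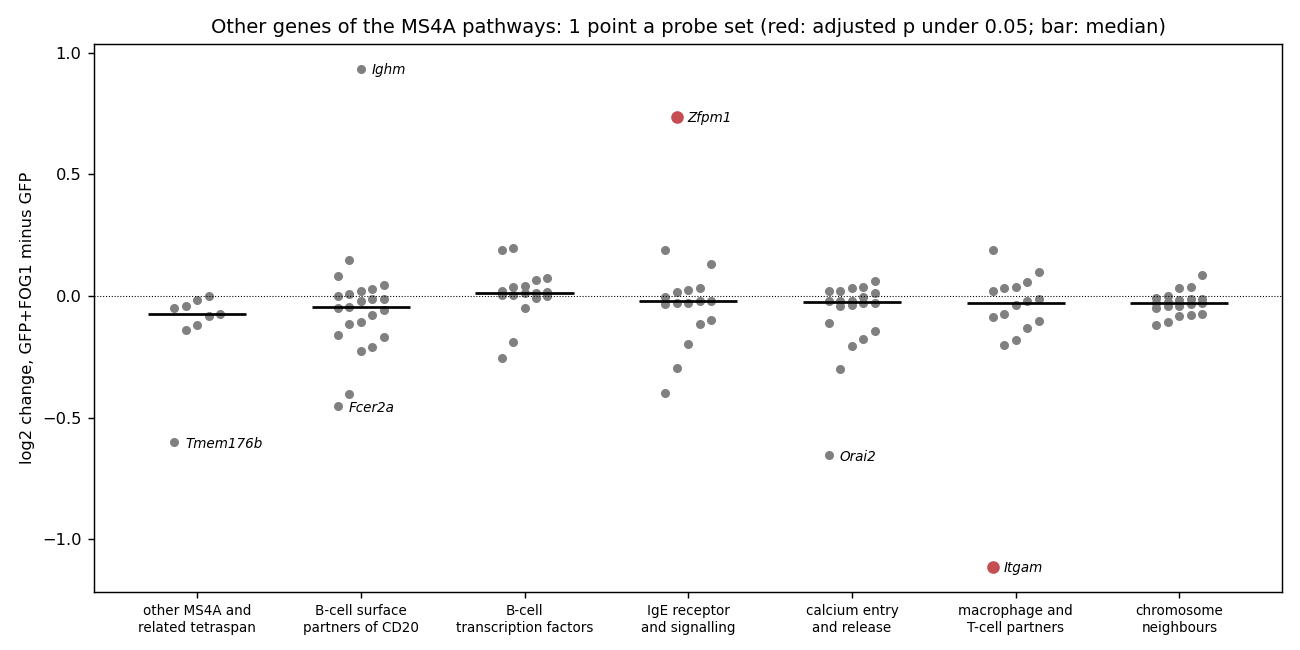
Log2 change (GFP+FOG1 minus GFP, vertical axis) of each probe set of the 7 lists of other genes (horizontal axis), with the list median as a black bar and probe sets past an adjusted p of 0.05 (limma) in red. The list medians lie between -0.07 and 0.01, and Zfpm1 at 0.74 and Itgam at -1.11 are the probe sets past the threshold.

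The 15 monocyte and macrophage markers, which do not include Itgam, had a mean signal of 6.29 to 6.31 on the GFP arrays and of 6.19 to 6.27 on the GFP+FOG1 arrays, so this mean was lower on all GFP+FOG1 arrays. None of the 15 passed (limma), and 1 had an unadjusted p under 0.05, against 12.5% of all probe sets. Their median change was -0.06. Over all probe sets the median change was -0.01, and it was 0.01 for those at or above the median signal. All but Cd68 and Cx3cr1 lay below the median signal, with the lysozyme gene Lyz2 at percentile 24.2 of the GFP signals. The 12 T and NK cell markers ran from 6.28 to 6.32 and from 6.23 to 6.30, which overlap, and the 12 mast cell and basophil markers from 5.69 to 5.73 and from 5.65 to 5.69. The median change was -0.04 for the T and NK cell markers and -0.04 for the mast cell and basophil markers. The part of other cell types in the values of Ms4a6b and Ms4a4c was not tested.

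The genes whose pattern over the 6 arrays was most like that of Ms4a6b were taken from 10582 genes at or above the median signal, by the root mean square difference between log2 values centred on each gene's mean. They were Itgam (0.073), Tlr7, an endosomal receptor for RNA (0.14), the phosphatase gene Ptpn3 (0.16), the inflammatory caspase gene Casp4 (0.21) and the sialyltransferase gene St6galnac2 (0.23). Their log2 changes ran from -0.76 (Casp4) to -1.50 (St6galnac2). For Ms4a1 they were Lsp1, a leukocyte protein that binds actin (0.040), the glycine decarboxylase gene Gldc (0.041), the ribonuclease gene Rnase6 (0.043), Tpd52 (0.045) and Lynx1 (0.047), with changes between -0.27 (Lynx1) and -0.35 (Rnase6). All 10 of these genes had groups that did not overlap, which the choice by likeness brings with it.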

How the data were processed

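RNA of 6 samples was isolated with no DNase step, amplified with a whole-transcript kit and hybridised to an Affymetrix mouse gene array, per the labels' protocols. The authors deposited 1 table of log2 signals for 34760 probe sets. Its scale was read from the values (3.12 to 14.07), and the submitters' processing notes name affy. How background, normalization and probe summary were handled is not given in the sources used here. Array medians ran from 6.98 to 7.04, so a change shared by most genes could be hidden.

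GEO's platform annotation gave 1 symbol for 21640 probe sets, several for 1321 and none in the table used here for 11799. Groups were taken from sample titles and fitted with limma 3.58.1 in R 4.3.3 (lmFit, eBayes, no block, no filter) on all probe sets, with Benjamini-Hochberg adjustment and a threshold of 0.05. The fit was tested on simulated data. The members and lists were chosen with earlier results of these data known. Named were all members, fixed partners, up to 4 genes a list with the smallest p, and the 5 genes most like Ms4a6b and Ms4a1. Ccdc86, Ms4a10 and the single cell type markers named were chosen after their values were seen. Promoters came from RefSeq tables of GRCm38.p6 and were aligned with Biopython 1.88. Figures used matplotlib 3.10.9 in Python 3.11.15. Alternatives were other normalizations, filters, variance models, array weights, the replicate block and leaving out each array.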

Additional observations from a re-analysis of the deposited data

How the results depend on the processing

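Quantile normalization, median centring, leaving out dim probe sets, testing 1-symbol probe sets alone, the block, robust estimation with a trend in the variance, weighted arrays and leaving out each array changed the log2 changes of Ms4a6b, Ms4a4c and Ms4a1 by less than 1 SD of the replicates, pooled over both groups. Their ranges were -1.22 to -1.03, -0.64 to -0.39 and -0.38 to -0.29. The average over a gene's probe sets gave the same values, since each gene had 1. The sign of Ms4a6c turned in 2 of 12 alternatives, and that of Ms4a7, at 0.00, in 3 of 12. Without 1 array the count of 78 called probe sets ranged from 17 to 38, and that of the list genes from 1 to 2. Fewer samples are part of that by construction. The list genes called were 5 rather than 2 when only 1-symbol probe sets were tested, namely Cd79a, Fcer2a, Itgam, Tmem176b and Zfpm1, where fewer probe sets enter the adjustment.

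Arrays of one replicate number showed deviations from their group means that correlated at -0.07, 0.01 and -0.04, and for 0 of 6 arrays was the same number the best match. The samples were therefore not treated as paired. In the fit with the replicate block, 9 probe sets passed (limma), with 3872 at an unadjusted p under 0.05, and 0 list genes passed, with 22 at an unadjusted p under 0.05. Itgam (-1.11) and Zfpm1 (0.74) had limma adjusted p of 0.088 and 0.097 there. For dim probe sets, which include 7 of the 10 genes, signal over background limits the measurement. A pseudocount does not apply to log2 values.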
